A study of Mus musculus with 12 samples.

Results

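The genes described here encode the proteins of the cytosolic ribosome, measured by RNA-seq in macrophages grown from the bone marrow of old and young mice. They were chosen by name: protein-coding genes whose symbol begins with Rpl or Rps followed by a digit, together with Rplp0, Rplp1, Rplp2 and Rpsa, without the Rps6k kinases and without pseudogenes. Of 86 such genes among the 55401 genes counted, 84 reached the minimum mean of 1 CPM (counts scaled to 1000000 assigned reads) over the 12 libraries. Just inside that minimum stood Rpl39l with a mean of 1.02 CPM. Those left out lay far below it, Rpl3l with 0.033 CPM and Rpl10l with no count in any library. By role, 43 of the 84 genes encode proteins of the large subunit, 31 proteins of the small subunit, 3 the acidic stalk of the large subunit and 6 are variant paralogs of a canonical member. The remaining gene, Rps19bp1, meets the naming rule but by its name encodes a protein that binds Rps19 and is no ribosomal protein itself. The 84 genes lie on 19 chromosomes.

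The groups were macrophages of old mice, aged 12 months, and of young mice, aged 8 weeks, with 6 libraries each, and all mice had a C57BL6 background. In both groups bone marrow cells had been cultured for 7 days with macrophage colony-stimulating factor, the cytokine that drives marrow progenitors to become macrophages. The labels call the libraries biological replicates but do not say whether each came from its own animal, and the p-values here reflect only how far these libraries scattered, which may be technical. Assigned counts ran from 19345587 to 22356812 in old libraries and from 22150081 to 25169045 in young libraries.

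The libraries were checked against marker genes. Lyz2, a lysozyme of macrophages, had 24808 to 33452 CPM in old libraries and 20504 to 34972 CPM in young libraries, and Csf1r, the receptor of the growth factor in the culture, had at least 2524 CPM in all 12. Of 12 neutrophil markers, 6 were under 1 CPM in every library, among them Ly6g at no more than 0.094 CPM. The summed level of the 12 was 125 to 233 CPM in old and 73.3 to 221 CPM in young libraries, most of it from Csf3r, a receptor that monocytes also carry. All 7 neutrophil markers tested had a log2 fold change above 0, with a median of 0.43 and none called, and their part in the ribosomal results was not tested. Cd3e of T cells reached 2.28 CPM in old replicate 6 and was at 0 in every young library. The summed level of 8 T and NK cell markers was 36.7 CPM in that library, at most 0.27 CPM in the other old libraries and at most 0.088 CPM in young libraries. Cell cycle genes were highest in young replicate 6, old replicate 2 and old replicate 3, whose median log2 deviations from each gene's mean were 1.99, 1.36 and 0.87, against -0.93 to 0.41 in the other libraries.

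A ribosome is built from ribosomal RNA and one copy of most of these proteins, except the stalk proteins Rplp1 and Rplp2, which are present in several copies. The subunits are assembled in the nucleolus and joined on mRNA, where the small subunit decodes the message and the large subunit joins the amino acids. The mRNAs of ribosomal proteins typically begin with a C followed by a run of pyrimidines, the terminal oligopyrimidine (TOP) element, through which the growth kinase mTORC1 controls their translation. In macrophages, as in other cells, this set of mRNAs is among the most abundant and follows the demand for growth and protein synthesis.

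RefSeq start windows, 250 bases before and 50 after each annotated start in GRCm38.p6, were held for 64 of the 84 genes (75 windows). A pyrimidine run, defined as a C and at least 4 more C or T within 5 bases of the start on the sense strand, was found in 42.7% of these windows and in 17.1% of all 32851 windows of the table. The sequences below run from 10 bases before to 15 bases after the annotated start, 5′ to 3′ on the gene's strand, with the run in capitals. The first 6 are shown as examples of the element, and the last pair as examples of the 34 genes with a window in which no run was found at an annotated start, which include canonical genes such as Rpl5, Rpl11, Rps3 and Rplp0.
Rps6 (chr4:86857353-86857377, minus strand): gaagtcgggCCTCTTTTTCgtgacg
Rpl28 (chr7:4792955-4792979, plus strand): tctcgtgtctCTCTTTCCgtctccg
Rpl38 (chr11:114668570-114668594, plus strand): aagcctcgttCTTTCCCCgttctct
Rps18 (chr17:33955651-33955675, minus strand): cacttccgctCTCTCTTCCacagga
Rps27 (chr3:90213634-90213658, minus strand): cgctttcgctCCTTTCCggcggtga
Rps27rt (chr9:114982725-114982749, minus strand): ttatcccttgCTTTCCggcggtgac
Rpl39l (chr16:10170218-10170242, plus strand): aggcctttccggatttccggtggtc
Rpl7l1 (chr17:46782642-46782666, minus strand): gctgcgcaagcgcagtagctgaagc
In Rps6, which encodes the small-subunit protein phosphorylated when cells receive growth signals, the run begins 1 base before the annotated start. In Rps27 and in Rps27rt, its retrogene copy on another chromosome, the run starts on the annotated first base and is followed by the same bases ggcggtga, while the bases before it differ. Rpl39l and Rpl7l1, both variant paralogs, hold no run that meets the definition at their annotated starts, nor do many canonical genes. In Rpl39l the bases cctttcc end just before the annotated start, but the Cs that open them lie more than 5 bases before it, outside the limit.

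Promoter motifs were searched by letters on both strands of the 300-base windows. CCGGAAG, the core bound by ETS factors, was in 36.0% of the members' windows and in 8.86% of all windows. AANATGGC, the core bound by YY1, was in 22.7% and 6.05%, GGGCGG, bound by Sp1, in 61.3% and 35.7%, and CTTTCC, which can form part of a pyrimidine run, in 52% and 26.6%. For CACGTG, the E-box, the shares were 10.7% and 7.15%, and for TATAAA 9.33% and 13.6%. The 80 bases that end just before the annotated start of Rpl38 hold GGGCGG and CCGGAAG, and those of Rps27 hold AANATGGC, both printed on the gene's strand with the motifs in capitals.
Rpl38 (chr11:114668500-114668579, plus strand): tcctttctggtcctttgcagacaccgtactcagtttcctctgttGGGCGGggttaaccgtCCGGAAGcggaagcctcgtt
Rps27 (chr3:90213649-90213728, minus strand): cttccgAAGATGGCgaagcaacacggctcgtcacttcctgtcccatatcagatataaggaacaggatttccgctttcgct
The 30 genes with a pyrimidine run had a median log2 fold change, old over young, of -0.17 and the 34 without had -0.15, with 29 and 33 genes below 0. These are matches of letters in a window, given as a description of the sequences.

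Levels per length were computed as RPKM (CPM divided by exon length in units of 1000 bases), averaged over the 12 libraries. Exon length counts all annotated exon bases of a gene. Its median over the 84 genes was 1755 bases, against 768 bases for the first-named protein-coding transcript of each. That transcript is the one whose name sorts first, and it need not be the one most used. The order of genes by RPKM depends on the length taken, as Rps24 has 6256 exon bases and a first-named transcript of 468. The median of the 84 genes was 208 RPKM, and the range ran from 1.23 for Rpl39l to 2527 for Rplp1, a stalk protein that helps to recruit elongation factors. Among small-subunit genes Rps15 (921 RPKM), Rps29 (779) and Rps4x (694) were highest, and among large-subunit genes Rpl32 (787) and Rpl10 (745), whose protein joins the large subunit late in its assembly. The lowest canonical genes were Rps10 (1.89 RPKM), Rpl24 (10.8) and Rpl13a (12.0), although their proteins are canonical subunits.

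Those 3 genes share exon bases with other annotated genes, and the deposited counts leave out reads that fall on more than 1 gene. For Rps10 28.7% of exon bases are shared, with the readthrough gene RPS10-NUDT3 and the antisense gene Gm15420. For Rpl24 the share is 47.0% (Gm28037), and for Rpl13a 35.4% (Gm45713, Snord33 and Mir5121). The 7 genes with at least 25% of exon bases shared had a median of 82.8 RPKM, against 210 RPKM for the other 77. Within the 7 the range ran from 1.89 to 225 RPKM, and Rpl35, with the largest share (66.2%), had 150 RPKM. Reads that align to several places were left out as well, and ribosomal protein genes have many processed pseudogenes. In the median gene 58.7% of the 50-base words of its first-named transcript also occur in a transcript of another gene. This percent depends on the transcript taken. The 48 genes with at least 50% of words shared had a median of 197 RPKM and the other 36 a median of 254 RPKM. Levels of single genes may therefore be understated to different degrees. The part of shared bases or words in the low levels was not tested. The share left out also differed between libraries: records aligned to several places were 11.5% in old replicate 6 and 14.2% in young replicate 6, the lowest and the highest value, and the part of this in the comparison of old with young was not tested.

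**Figure D1:**
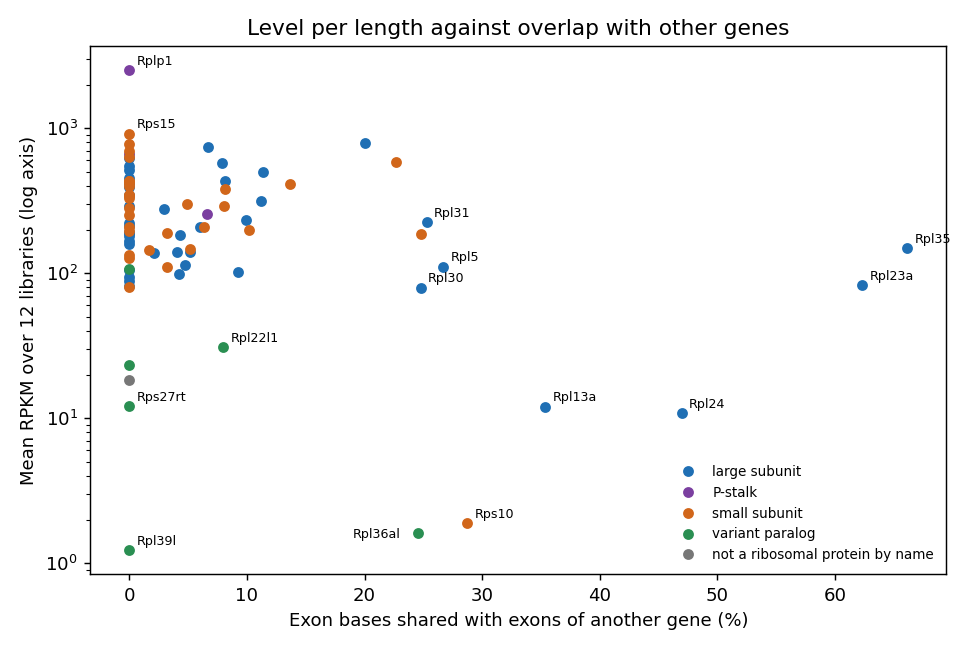
Mean RPKM over 12 libraries (vertical, log axis) against the percent of a gene's exon bases that lie in exons of another gene (horizontal), 1 point per gene, coloured by role. Rplp1 at 2527 RPKM is highest, and Rps10, Rpl24 and Rpl13a lie low with 28.7%, 47.0% and 35.4% of bases shared.

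Ribosomal protein genes together took 3.21% of counts in the lowest old library, 3.73% in the median and 4.52% in the highest (mean 3.80% ± 0.428, SD, n = 6). In young libraries the lowest was 3.94%, the median 4.21% and the highest 4.39% (mean 4.19% ± 0.191, SD, n = 6). Old replicate 2 lay above all young libraries and old replicate 6 below all others, so the groups overlapped. In bulk RNA fewer cells of a type and less RNA per cell cannot be told apart.

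Old macrophages were set against young ones, gene by gene, with edgeR's quasi-likelihood test over the 12620 genes that passed its low-count filter, among them all 84 described here. No ribosomal protein gene passed a Benjamini-Hochberg adjusted p of 0.05, where the background over all genes was 0.0158% (2 genes, both higher in old), and the lowest adjusted p among the 84 was 0.77. DESeq2 and limma voom also called 0 of them. At an unadjusted p under 0.05, edgeR counted 30 of the 84, DESeq2 39 and voom 35, against 5.47%, 6.02% and 5.3% of all genes by the same tools. Of edgeR's 30, 29 were lower in old, against 2.24% of all genes, and 1, Rpl39l, was higher. Rpl39l reached the minimum of 1 CPM only through the old libraries (mean 1.58 CPM in old and 0.466 CPM in young), so its place on the list depends on the group in which it was high.

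The direction was shared more widely than any call. The log2 fold change was below 0 for 82 of the 84 genes, against 52.5% of all genes tested, with a median of -0.16 (quartiles -0.19 and -0.14) against -0.01 over all genes. As described further on, these genes moved together from library to library, so the 82 are not separate observations. Both subunits had similar values: the median was -0.16 for the 43 large-subunit genes, all below 0, and -0.16 for the 31 small-subunit genes, of which 30 were below 0. Values ran from -0.26 to -0.02 in the large and from -0.23 to 0.01 in the small subunit. The 3 stalk genes had a median of -0.16 and the 6 variant paralogs of -0.20. In the 33 genes with under 50% of transcript words and under 10% of exon bases shared with other genes, a set formed after the data were seen, the median was -0.16 and 32 were below 0. The words were taken from the first-named transcript, which can be a long one, as in Rps3 (1908 bases, 2.96% shared). A gene can thus enter this set through the transcript taken, so the set cannot show what reads left out for aligning to several places would have done. In none of the 84 genes did every old library lie below every young one, which held for 0.0872% of all genes (11 genes).

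These unadjusted counts moved with single libraries and with the scaling, and the share of all genes at an unadjusted p under 0.05 moved with the libraries too. Without old replicate 6, 6 of the 84 genes were at an unadjusted p under 0.05 (2.47% of all genes) and the median was -0.12. Without young replicate 5 the count was 7 (2.86% of all genes) and the median -0.13. Without old replicate 2 it was 68 (12.7% of all genes) with a median of -0.20. Leaving out young replicate 2 gave 9 (4.85% of all genes), and leaving out young replicate 4, old replicate 4 or old replicate 5 gave 13 each (3.68%, 3.44% and 3.75%). Old replicate 1 or old replicate 3 left out gave 16 each (4.03% and 4.59%). With library size as the only scaling the count was 9, against 4.9% of all genes. Without the 3 libraries of highest cell cycle level, 73 of 83 genes were at an unadjusted p under 0.05, against 18.1% of all genes, and the median was -0.22, with 0 called and a lowest adjusted p of 0.14. Each of these alternatives left at least 81 genes below 0.

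**Figure D2:**
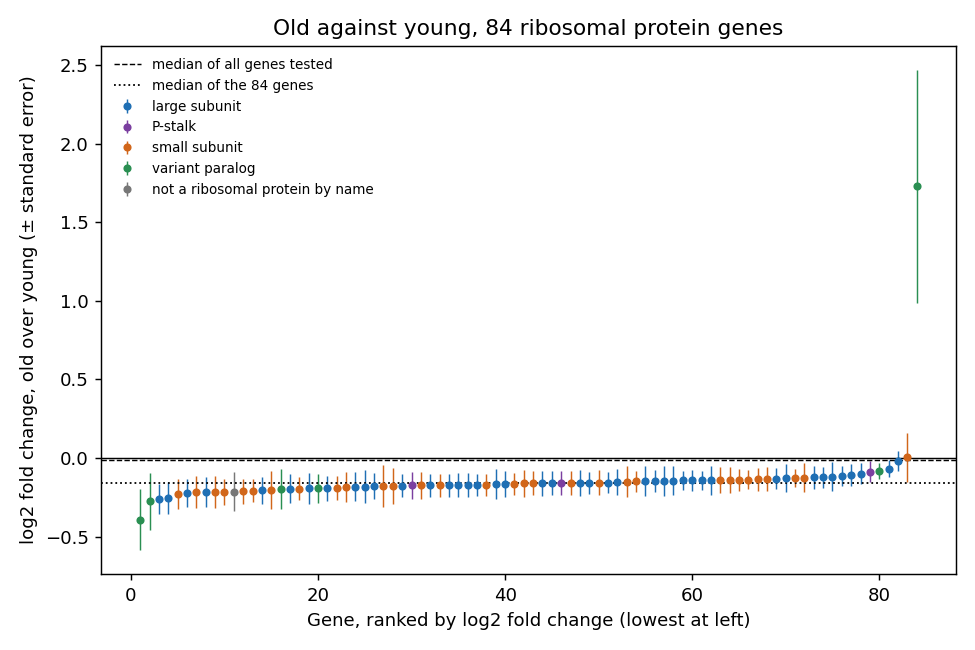
Log2 fold change, old over young (vertical), of the 84 genes ranked from lowest to highest (horizontal), with bars of ± 1 standard error and colours by role. The dotted line is the median of the 84 genes, -0.16, and the dashed line that of all genes tested, -0.01. Rpl39l, at 1.73, stands apart at the right.

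Among large-subunit genes Rpl21 had the lowest fold change of those with at least 5 CPM. It had 345 CPM in the lowest old library, 435 in the median and 532 in the highest, against 463, 522 and 573 CPM in young libraries, a log2 fold change of -0.26 (SE 0.09, edgeR adjusted p = 0.77). Old replicates 1, 3, 4, 5 and 6 lay below every young library and old replicate 2 lay among the young ones. Rpl38, whose loss in mice disturbs the translation of Hox mRNAs, had 156, 195 and 237 CPM in old libraries (lowest, median, highest) and 204, 227 and 256 CPM in young libraries, a log2 fold change of -0.22 (SE 0.09). Here too old replicate 2 stood among the young libraries. Rpl32 had 563, 689 and 863 CPM in old and 743, 823 and 869 CPM in young libraries, a log2 fold change of -0.21. Its groups overlapped through old replicate 2.

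Rpl5 and Rpl11 bind the smallest ribosomal RNA of the large subunit and, when free, inhibit the ubiquitin ligase Mdm2. Rpl5 had 358, 417 and 467 CPM in old libraries and 433, 454 and 474 CPM in young libraries, and Rpl11 had 402, 478 and 561 CPM in old and 474, 547 and 609 CPM in young libraries. Their log2 fold changes were -0.13 (SE 0.06) and -0.18 (SE 0.08). For each gene every old library except replicate 2 lay below the young median, and the ranges overlapped. Rpl10 had 1303, 1507 and 1546 CPM in old libraries and 1261, 1611 and 1878 CPM in young libraries, and its lowest library of all was young replicate 6. Rpl13a, which in human monocytes can leave the ribosome to silence inflammatory mRNAs, had 18.5, 23.1 and 30.7 CPM in old and 24.4, 27.1 and 28.7 CPM in young libraries. Rpl24 had 8.70, 9.82 and 12.4 CPM in old and 10.8, 12.1 and 13.7 CPM in young libraries, a log2 fold change of -0.25 (SE 0.10), on the counted part of its exons only.

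Rpl7 and Rpl6 were the large-subunit genes nearest to 0. Rpl7 had 548, 563 and 572 CPM in old libraries and 474, 588 and 592 CPM in young libraries, a log2 fold change of -0.02 (SE 0.06) that turned to 0.0011 with library size as the only scaling. Young replicate 6 was the lowest library, and the other 5 young libraries lay above all old ones. Rpl6 had 536, 569 and 588 CPM in old and 552, 599 and 620 CPM in young libraries, a log2 fold change of -0.07 (SE 0.05).

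The 3 stalk genes ranked together across libraries. Rplp1 had 1021, 1205 and 1328 CPM in old libraries and 1211, 1303 and 1514 CPM in young libraries, and Rplp2, its partner in the stalk dimers, 409, 501 and 597 CPM in old and 505, 563 and 644 CPM in young libraries. Rplp0, the base of the stalk, had 951, 1064 and 1193 CPM in old and 1055, 1138 and 1213 CPM in young libraries. In all 3 the lowest old library was replicate 6, the highest old one replicate 2, the lowest young one replicate 3 and the highest young one replicate 5. Their log2 fold changes were -0.16, -0.17 and -0.09, with adjusted p-values of 0.77 to 0.78 by edgeR. With the trend of fold change with exon length removed, described further on, they were -0.05, -0.12 and -0.02.

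Among small-subunit genes, Rps12 had 615, 740.1 and 965 CPM in old libraries and 787, 887 and 1013 CPM in young libraries, a log2 fold change of -0.22 (SE 0.10). Old replicates 2 and 3 lay among the young libraries and the other 4 old libraries below them. Rps27a, which is made as a fusion with ubiquitin, had 581, 706 and 802 CPM in old and 740, 810 and 878 CPM in young libraries, a log2 fold change of -0.21 (SE 0.08, unadjusted p = 0.016). Rps15a had 403, 469 and 546 CPM in old and 504, 535 and 554 CPM in young libraries, a log2 fold change of -0.17 (SE 0.07). In both, old replicate 2 was the only old library above the lowest young one.

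Rps19, mutated in the human red cell disorder Diamond-Blackfan anaemia, had 420, 538 and 695 CPM in old libraries and 572, 656 and 695 CPM in young libraries. Its highest old library matched its highest young library to within 1 CPM. Rps6 had 258, 288 and 343 CPM in old and 306, 323 and 345 CPM in young libraries, and Rps4x, an X-linked gene, 932, 1078 and 1191 CPM in old and 1121, 1179 and 1299 CPM in young libraries. Rpsa, also known as a laminin receptor, had 672, 844 and 1156 CPM in old and 879, 1017 and 1222 CPM in young libraries. Rps10, with few counts, was the only canonical gene above 0, at a log2 fold change of 0.01 (SE 0.16). It had 2.95, 4.52 and 5.20 CPM in old and 3.38, 4.39 and 5.498 CPM in young libraries. Its sign turned under voom and without any of 6 single libraries.

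The variant paralogs behaved less alike. Rpl39l, known mainly from testis, was listed at 2.71, 0.56, 1.42, 0.37, 0.36 and 4.04 CPM in old replicates 1 to 6 and at 0.25, 0.35, 0.00, 0.72, 0.35 and 1.13 CPM in young replicates 1 to 6. Old replicates 1, 3 and 6 were above every young library and the other 3 fell within the young range, on 262 counts in all 12 libraries. The retrogene Rps27rt had 4.48, 4.19, 3.38, 4.30, 4.24 and 2.80 CPM in old replicates 1 to 6 and 5.37, 6.36, 4.47, 5.30, 6.41 and 2.83 CPM in young replicates 1 to 6, a log2 fold change of -0.39 (SE 0.19). The lowest library of each group was replicate 6, and 91.1% of this gene's 50-base words are shared with other transcripts, so its counts are uncertain.

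Rpl22l1, the paralog of Rpl22, had 51.5, 55.5 and 72.2 CPM in old libraries (lowest, median, highest) and 60.02, 63.5 and 77.6 CPM in young libraries. Old replicate 2 stood well above the other old libraries, all of which lay below the young ones. Rpl7l1, whose product belongs to precursors of the large subunit, had 75.2, 79.3 and 80.1 CPM in old and 78.6, 81.9 and 91.4 CPM in young libraries. Rps27l had 68.2, 77.4 and 105 CPM in old and 81.5, 86.9 and 130 CPM in young libraries, and Rpl36al had 1.58, 1.78 and 2.62 CPM in old and 1.86, 2.42 and 2.88 CPM in young libraries. None of these 3 had groups that separated. Rps19bp1, the gene that encodes no ribosomal protein, had 16.6, 17.8 and 22.1 CPM in old and 16.1, 21.2 and 28.5 CPM in young libraries, a log2 fold change of -0.21 (SE 0.12), and without it the median of the other 83 genes was -0.16.

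The family moved as a block from library to library. Old replicate 2 was the highest old library in 73 of the 84 genes and old replicate 6 the lowest in 77. Among young libraries replicate 5 was highest in 57 genes and replicate 3 lowest in 55. The rank of young replicate 5 depends on the scaling of library totals by TMM factors, where its factor, 0.918, was the lowest of the 12. By unscaled share of counts it held 4.25%, below young replicate 2 with 4.39% and young replicate 6 with 4.37%. The median log2 deviation of the 84 genes from each gene's mean was -0.08, 0.13, -0.06, -0.09, -0.08 and -0.31 in old replicates 1 to 6, and 0.03, 0.11, -0.03, 0.10, 0.21 and 0.07 in young replicates 1 to 6. In the 77 genes of at least 50 CPM, the median SD of log2 CPM over the 12 libraries was 0.154. It was 0.065 once the mean of all the other genes among the 84 was subtracted in each library. That family mean includes the genes below 50 CPM. The SD became smaller in 73 of the 77 genes. Old replicate 6, which had the lowest family level, also stood apart in other markers. Its T and NK cell markers summed to 36.7 CPM, the monocyte gene Ly6c2 had 22.5 CPM, against at most 1.07 CPM in the other old libraries and 1.502 CPM in young ones, and the osteoclast gene Atp6v0d2 had 335 CPM, against at most 143 and 122 CPM. Median deviations in old replicate 6 were 0.77 for monocyte and progenitor markers and 0.75 for osteoclast markers. For neutrophil markers the deviation was -1.68, near the -1.57 of young replicate 6. Their summed level in old replicate 6, 181 CPM, lay within the range of the other old libraries. The part of any of these in the result was not tested.

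**Figure D3:**
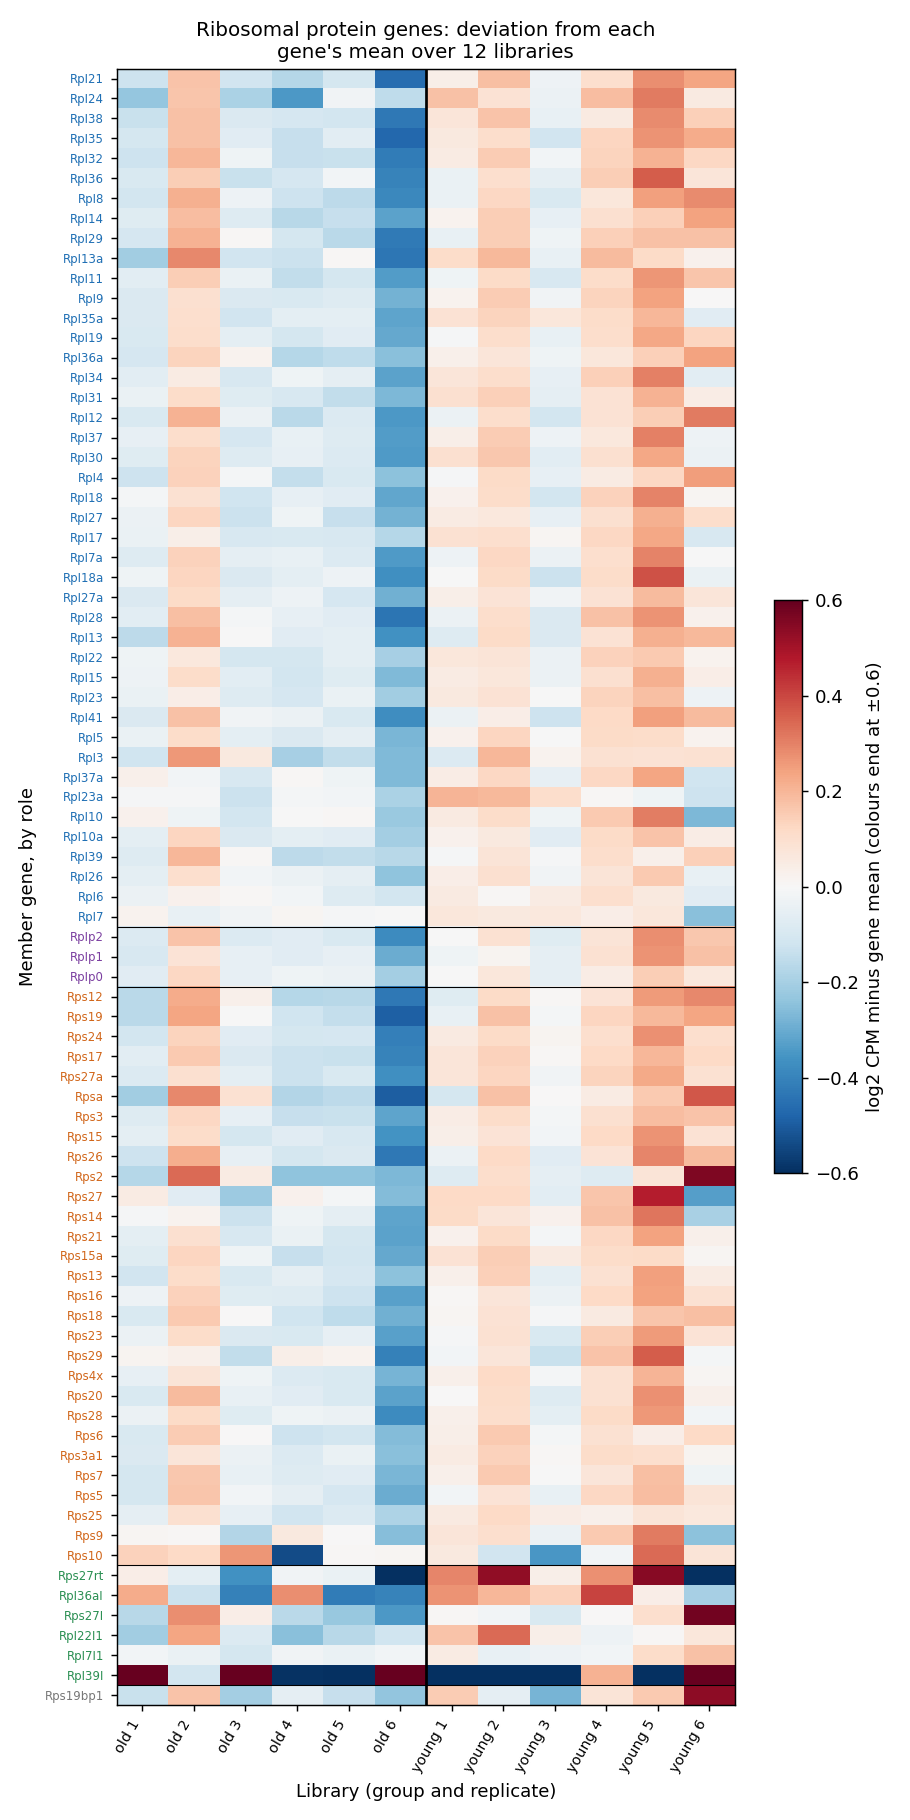
Log2 CPM of 82 of the 84 genes (rows, grouped by role and ranked by fold change within a role) minus that gene's mean over the 12 libraries (columns, old at left and young at right), as colours that end at ± 0.6. Over all 84 genes old replicate 6 is the lowest old library in 77 and old replicate 2 the highest in 73, while young replicate 6 mixes high and low genes.

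Young replicate 6 broke this block. The SD of the 77 genes about the family mean was 0.163 log2 units in that library, 0.098 in old replicate 6, 0.094 in young replicate 5, 0.080 in old replicate 2 and at most 0.061 in the other 8 libraries. In it 14 genes lay more than 0.2 log2 units from the family mean, 7 above and 7 below. Above it were, among others, Rps27l at 0.51, Rps2 at 0.48, Rpsa at 0.30, Rpl12 at 0.24, Rps12 at 0.21 and Rpl8 at 0.21. Below it were Rps27 at -0.42, Rpl10 at -0.35, Rpl7 at -0.33, Rps9 at -0.33, Rps14 at -0.28, Rpl23a at -0.21 and Rpl37a at -0.20.

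Rps27 and its paralog Rps27l gave the clearest contrast. Rps27 had 354 CPM in young replicate 6, and 427 to 619 CPM in the other 5 libraries of young mice, while Rps27l had 130 CPM there, against 81.5 to 93.1 CPM. Rps2 had 769 CPM in young replicate 6, and 494 to 561 CPM in the other 5 of that group. Of the 50-base words of its transcript, 98.6% are shared with other transcripts for Rps27 and 22.4% for Rps27l. In old replicate 2 the same genes deviated from the family mean by -0.19 for Rps27, 0.16 for Rps27l, 0.22 for Rps2 and 0.17 for Rpsa. Both libraries were high in cell cycle genes (1.99 and 1.36), and young replicate 6 was the lowest of the 12 in macrophage markers, with a summed level of 30832 CPM over 14 genes, against 37834 to 55235 CPM in the others; the part of either in the result was not tested.

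Other genes of ribosome production and translation were read from lists. All 3 ribosomal protein genes listed outside the naming rule were below 0, with a median of -0.11, among them Rack1, a scaffold on the small subunit, with 980 ± 74.6 CPM in old and 1057 ± 51.4 CPM in young libraries (SD, n = 6 each). Ribosome assembly factors had 29 of 35 genes below 0 with a median of -0.10, and their most abundant gene, Npm1, a nucleolar chaperone, had 294 ± 11.1 CPM in old and 304 ± 26.4 CPM in young libraries. Genes of RNA polymerase I, which makes ribosomal RNA, had 15 of 18 below 0 with a median of -0.09. The snoRNA host transcripts, whose introns release guides for ribosomal RNA modification, had 8 of 8 tested below 0 with a median of -0.12; Gas5 had 75.2 ± 4.48 CPM in old and 81.0 ± 5.51 CPM in young libraries.

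Elongation factors and other TOP mRNAs had 8 of 11 genes below 0 with a median of -0.08. Eef1a1, which brings aminoacyl-tRNA to the ribosome, had 5379 ± 218 CPM in old and 5128 ± 423 CPM in young libraries, a log2 fold change of 0.07, while Eef1b2, its exchange factor, had 405 ± 26.2 and 445 ± 19.5 CPM, a log2 fold change of -0.13. Initiation factors had 27 of 35 below 0 with a median of -0.07, and mTORC1 and its TOP regulators 16 of 24 tested with a median of -0.03. No gene of these lists passed the adjusted threshold by edgeR.

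Genes of the mitochondrial ribosome and of respiration had medians like those of the cytosolic ribosome. Of 77 mitochondrial ribosomal protein genes tested, 73 were below 0 with a median of -0.17, and of 75 nuclear genes of oxidative phosphorylation 74 were below 0 with a median of -0.17. Among mitochondrially encoded genes 8 of 11 tested were below 0 with a median of -0.12. None of these genes passed the adjusted threshold. Across libraries they differed from the cytosolic genes in young replicate 6, where the median deviation was 0.40 for both nuclear lists and 0.49 for assembly factors, against 0.07 for the 84 genes. In old replicate 6 the 84 genes stood at -0.31, the mitochondrial ribosome at -0.27 and oxidative phosphorylation at -0.31. Cell cycle genes had 34 of 34 below 0 with a median of -0.30, and the median standard error in that list was 0.58.

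**Figure D4:**
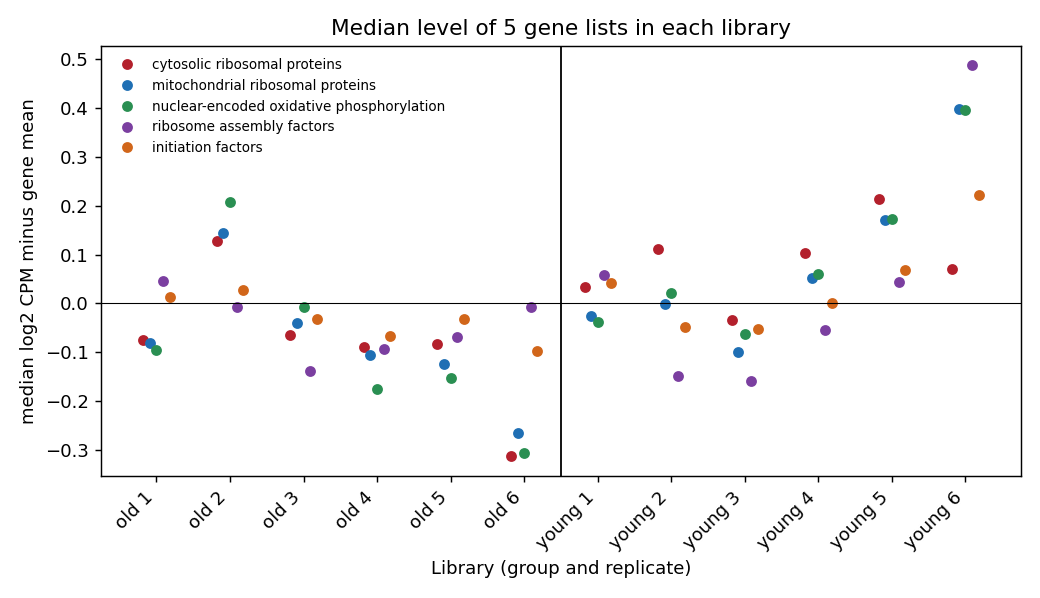
Median over each list of log2 CPM minus the gene's mean (vertical) in each library (horizontal, old at left and young at right), for 5 gene lists in colours. In young replicate 6 the cytosolic ribosomal proteins lie at 0.07 and the mitochondrial ribosome and oxidative phosphorylation at 0.40, whereas in old replicate 6 these 3 lists lie at -0.31, -0.27 and -0.31.

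Fold changes ran with gene length over all genes, and ribosomal protein genes are short. Their median exon length was 1755 bases, against 4232 bases for the other genes tested. The other genes had a median log2 fold change of -0.10 under 1000 bases (729 genes), -0.09 from 1000 to 2000, -0.06 from 2000 to 3000, -0.02 from 3000 to 5000, 0.03 from 5000 to 9000 and 0.08 from 9000 bases up. In the same lengths the 84 genes had -0.19 (13 genes), -0.16 (35 genes), -0.14 (20 genes), -0.16 (14 genes) and, from 5000 to 9000 bases, -0.19 (2 genes). Bins of 13, 14 and 2 genes are thin. Exon length counts all annotated exon bases, and the first-named transcripts of the 84 genes had a median of 768 bases. The 2 genes from 5000 to 9000 bases, Rps15a and Rps24, have first-named transcripts of 640 and 468 bases. A long exon length in these 2 genes is therefore no sign that all their mRNAs are long. The trend described next was removed by exon length too. Other genes under 1000 bases deviated by -0.18 in old replicate 6 and 0.16 in young replicate 5, the same libraries that held the lowest and highest family levels after TMM scaling. With the length trend of each library removed, the median of the 84 genes was -0.10, 81 were below 0 and 10 had an unadjusted p under 0.05, against 4.82% of all genes. Of the 32 named genes, 13 that were below 0 came out over 1.5 times nearer to 0, the stalk genes Rplp1 (-0.05) and Rplp0 (-0.02) among them. What goes with length in these libraries was not tested.

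**Figure D5:**
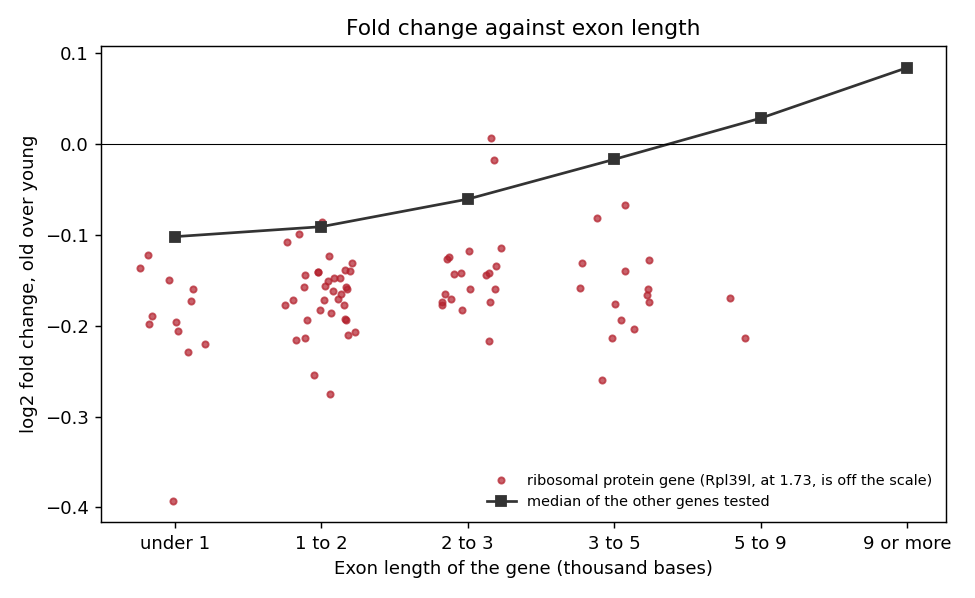
Log2 fold change, old over young (vertical), by exon length in 6 bins (horizontal, units of 1000 bases). Red points are ribosomal protein genes, spread sideways within a bin, and squares joined by a line are medians of the other genes tested, which run from -0.10 in the shortest to 0.08 in the longest bin.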

How the data were processed

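Per the labels' protocols, TRIzol was used for RNA and the unstranded Illumina TruSeq kit (v2) for library preparation. The authors deposited whole-number read counts per gene for 12 libraries, made with featureCounts 1.6.0 against Ensembl release 100 of GRCm38 without strand, pair counting or multiply aligned reads, per the file headers. Records aligned to several places made up 12.2% ± 0.67 of old and 12.7% ± 0.752 of young libraries, and records on more than 1 gene 4.60% ± 0.203 and 4.76% ± 0.175 (SD, n = 6 each). STAR and FastQC are named in the submitters' processing notes, without versions.

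Genes were named through a table that matched 55141 of 55401 IDs. The IDs without a symbol held 0.0044% of counts. Counts were tested with edgeR 4.0.16 (R 4.3.3): quasi-likelihood F test, robust, TMM factors, edgeR's low-count filter, group as the only term and all 12 libraries, two-sided, with a positive log2 fold change higher in old. P-values were adjusted by Benjamini-Hochberg over 12620 genes with a threshold of 0.05. DESeq2 1.42.0 and limma 3.58.1 voom were alternatives, as were other scalings and filters, a replicate block, removal of the trend with exon length and leaving out libraries. CPM use TMM factors, deviations use log2 CPM (prior count 2), and RPKM and the percent shared were computed here from the counts, exon lengths and transcripts of GENCODE on the same build. The edgeR step was tested on simulated counts drawn independently for each gene. That simulation cannot show how the step behaves for genes that move together, as the ribosomal protein genes do.

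Named genes were those called, the 5 highest and lowest fold changes of at least 5 CPM, the 3 highest and lowest levels in each subunit, the stalk, the paralogs and a fixed set of well-known members. In the other lists the most abundant gene and that of lowest p were eligible. Genes named beyond that rule, among them those beyond 0.2 in young replicate 6, were chosen after their values were seen. The genes and lists were chosen with earlier results of these data known. The counts of genes below 0 and at an unadjusted p under 0.05 were recomputed under each alternative after the data were seen. A few genes that the naming rule or the lists hold are counted in the totals but not reported here by name.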

Additional observations from a re-analysis of the deposited data

Results flagged for a closer look

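In each group of 6 libraries, the gap between the highest or lowest library and its nearest neighbour was set against the group's range, for 66 groups of values, and 4 stood apart. Chance flags about 1 in 20 groups. Rpl22l1 had 72.2 CPM in old replicate 2, against 51.5 to 57.9 CPM in the other old libraries. Rpl7l1 had 75.2 CPM in old replicate 3, against 78.8 to 80.1 CPM in the others, a narrow range. In young replicate 6, Rpl7 stood at 474 CPM, where the other 5 of its group held 580 to 592 CPM. The same library had 130 CPM of Rps27l, where the other 5 held 81.5 to 93.1 CPM. No explanation of these values was tested.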

How the results depend on the processing

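The count of ribosomal protein genes called was 0 in each alternative, and their median log2 fold change ranged from -0.22 to -0.10. Of 731 alternative values of the 32 named genes, 721 kept their direction and side of the threshold and 10 changed sign. Rpl7 (-0.02) was 0.0011 with library size alone and 0.018 with the length trend removed. Rps10 (0.01) was -0.00013 under voom and -0.077 without the 3 libraries of highest cell cycle level. Leaving out 1 library at a time, its value ranged from -0.055 to 0.097, and it was below 0 without young replicates 2, 3 or 4 or old replicates 1, 2 or 3. The cause was not tested.

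Over all genes the count called was 2, against 4 with no low-count filter, 11 by DESeq2 and 4 with the replicate block, and 1 (without young replicate 4) to 5 (without young replicate 3) when a library was left out. Deviations of same-numbered libraries correlated at 0.31, 0.12, 0.02, 0.38, 0.39 and -0.17, so the numbers were not taken as pairs, and only in replicate 1 did both libraries correlate best with each other. With the block 0 of the 84 genes were called and 82 lay below 0. Removing the length trend brought 13 of the 32 named genes over 1.5 times nearer to 0, and the count at an unadjusted p under 0.05 was 30, against 10 with that trend removed (4.82% of all genes) and 9 with library size as the only scaling (4.9% of all genes). Depth limits the lowest genes most: Rpl39l had 262 counts in all.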
